A study of Homo sapiens with 12 samples.

Results

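The 9 genes described here are the ID genes ID1, ID2, ID3 and ID4, the inhibitory SMADs SMAD6 and SMAD7, the nuclear repressor SKIL, the decoy receptor BAMBI and the ligand TGFB1. They are transcriptional targets or regulators of TGF-beta and BMP signalling, they were taken by symbol, and each matched 1 of the 60675 genes listed in every library. RNA had been sequenced from C4-2, a castration-resistant human prostate cancer line derived from LNCaP, and from cells labelled LNCaP, its androgen-dependent parent, to compare inhibition of the histone demethylases KDM1A and KDM7A alone and together. Each of the 12 libraries came from cells that had received the synthetic androgen R1881 at 1 nM, and treatment lasted 72 h. The C4-2 groups were R1881 alone, R1881 with the KDM1A inhibitor namoline at 50 µM, R1881 with the KDM7A inhibitor TCE-5002, and R1881 with both inhibitors (the combination). With the LNCaP label there were R1881 alone and R1881 with the combination. Each of the 6 groups had 2 libraries. TCE-5002 is given as 100 µM in the series text and as less in the methods of the study, which leaves its dose uncertain. The study describes it as selective for KDM7A but names KDM7B (PHF8) and KDM2A as further targets. Changes with TCE-5002 can therefore not be assigned to KDM7A alone. Each line is an established culture, and the study's methods call the 2 libraries of a group biological replicates, while no label says which culture each came from. A p-value below measures the spread between these libraries.

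TGF-beta and BMP ligands bind paired receptor kinases that phosphorylate SMAD proteins, which enter the nucleus with SMAD4 and bind DNA. BMP signalling through SMAD1, SMAD5 and SMAD9 is a classical inducer of the ID genes, whose proteins lack a DNA-binding region and hold bHLH transcription factors off DNA. SMAD6 and SMAD7 block receptor-activated SMADs, SKIL (SnoN) represses SMAD-bound promoters and BAMBI is a receptor-like protein without a kinase domain, so these 4 genes form negative feedback. ID1 and ID3 are usually studied in prostate tumours as genes of proliferating or dedifferentiated cells, and ID4 as a gene often silenced in them.

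In GRCh38, as the deposited counts place them, ID1 lies at chr20:31605283-31606515 (plus strand), ID2 at chr2:8678845-8684453 (plus), ID3 at chr1:23557918-23559794 (minus) and ID4 at chr6:19837386-19840684 (plus). SMAD6 lies at chr15:66702228-66782848 (plus), SMAD7 at chr18:48919853-48950711 (minus), SKIL at chr3:170357678-170396835 (plus), BAMBI at chr10:28677342-28682939 (plus) and TGFB1 at chr19:41301587-41353911 (minus). Exons of ID2 shared 38 bases with the antisense gene ID2-AS1, and exons of TGFB1 shared 215 bases with HNRNPUL1 on the opposite strand. Counting did not use strand, so reads there cannot be assigned to one gene of the pair.

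The 250 bases before the RefSeq start of the 4 ID genes are shown because these genes fell together with TCE-5002, and those of BAMBI because it moved the other way (build GRCh38.p14, written 5′ to 3′ on the gene's strand). SMAD6 also rose with TCE-5002, and its bases are not shown. The windows shown are chr20:31605039-31605288 (plus), chr2:8681806-8682055 (plus), chr1:23559502-23559751 (minus), chr6:19837120-19837369 (plus) and chr10:28677271-28677520 (plus). Capitals mark matches to AGAC or its complement GTCT, the core letters of the SMAD binding element, and to GGCGCC, a GC-rich SMAD motif.
ID1: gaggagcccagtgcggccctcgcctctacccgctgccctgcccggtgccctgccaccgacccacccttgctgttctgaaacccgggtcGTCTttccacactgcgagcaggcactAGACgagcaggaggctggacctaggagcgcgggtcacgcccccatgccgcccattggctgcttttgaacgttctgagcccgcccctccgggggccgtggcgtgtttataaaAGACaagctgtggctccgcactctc
ID2: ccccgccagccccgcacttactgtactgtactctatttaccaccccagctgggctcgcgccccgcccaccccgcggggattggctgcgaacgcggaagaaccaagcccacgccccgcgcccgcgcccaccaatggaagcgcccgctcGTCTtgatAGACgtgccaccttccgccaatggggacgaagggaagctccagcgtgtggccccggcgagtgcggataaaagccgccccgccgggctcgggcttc
ID3: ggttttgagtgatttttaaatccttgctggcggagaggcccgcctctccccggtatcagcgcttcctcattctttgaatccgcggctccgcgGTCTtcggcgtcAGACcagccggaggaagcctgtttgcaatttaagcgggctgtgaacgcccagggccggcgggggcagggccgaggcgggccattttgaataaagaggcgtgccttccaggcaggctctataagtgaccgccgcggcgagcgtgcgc
ID4: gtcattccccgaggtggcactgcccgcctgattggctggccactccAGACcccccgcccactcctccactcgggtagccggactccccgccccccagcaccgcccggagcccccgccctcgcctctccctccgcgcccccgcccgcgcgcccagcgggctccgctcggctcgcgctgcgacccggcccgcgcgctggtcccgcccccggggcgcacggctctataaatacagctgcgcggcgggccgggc
BAMBI: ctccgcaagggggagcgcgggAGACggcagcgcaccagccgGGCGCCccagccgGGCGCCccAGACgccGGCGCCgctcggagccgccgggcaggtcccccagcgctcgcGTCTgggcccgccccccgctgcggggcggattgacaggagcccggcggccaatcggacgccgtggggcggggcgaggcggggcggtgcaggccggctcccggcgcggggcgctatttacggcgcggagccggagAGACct
AGAC occurred 3 times before ID1, 2 times before ID2, 2 times before ID3, 1 time before ID4 and 4 times before BAMBI, counted on both strands. It was present in 77.5% of the 35116 RefSeq promoter windows of the same length. GGCGCC, which reads the same on both strands, occurred 3 times before BAMBI and 1 time before SKIL, was not in the windows of the other members, and was present in 16.4% of all windows. That share was not matched for GC content, which was 81.2% in the BAMBI window, 78.4% in that of SKIL and 78.8% in that of ID4. SMAD6, which rose with TCE-5002 as BAMBI did, was among the members without GGCGCC, and SKIL did not pass the test with TCE-5002. Neither CAGACA (13.6% of windows), which contains AGAC, nor the AP-1 motif TGAGTCA (4.2%) occurred in a member's window, SMAD7 with its 3 listed starts included. A match is a match of letters and not a measured binding site. Bases further upstream were not searched, so a motif missing from a window may lie outside it.

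Library totals ran from 14791602 to 20690819 counts. In 11 of the 12 libraries the sample name inside the deposited counts named the same inhibitors as the labels. That of LNCaP combination replicate 1 named namoline without TCE-5002. For members that passed, the log2 fold changes that rest on this library are therefore given with and without it. Results for the pathway lists and markers in the LNCaP combination are given only with it. Luminal prostate markers (9 genes) summed to 3503 to 3658 CPM (counts scaled to a common effective library size by TMM) in C4-2 R1881 and to 769 to 834 CPM in LNCaP R1881. At R1881 alone 8 of the 9 were higher in C4-2. KLK3 went the other way, at 206 to 228 CPM in C4-2 R1881 and 355 to 397 CPM in LNCaP R1881. Mesenchymal and fibroblast markers (9 genes) summed to 3.70 to 5.06 CPM in C4-2 R1881 and to 796 to 892 CPM in LNCaP R1881. Most of the LNCaP R1881 sum was VIM at 640.0 to 732 CPM, with CDH2 at 47.8 to 51.3 CPM, and DCN and LUM, which mark fibroblasts, at 0 counts. At R1881 alone 6 of the 7 tested were lower in C4-2. PDGFRB went the other way, at 1.10 to 1.36 CPM in C4-2 R1881 and 0.18 to 0.28 CPM in LNCaP R1881. EPCAM, an epithelial marker, was at 3.50 to 4.001 CPM in LNCaP R1881. Basal markers (4 genes) and endothelial and blood markers (5 genes) each summed to at most 1.02 CPM in every library. This marker pattern is unlike that usually described for LNCaP, a luminal epithelial line. The cells are called by their label below, and whether comparisons between the lines set C4-2 against its parent line is uncertain. In these bulk libraries fewer cells of a type and less RNA per cell cannot be told apart.

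Per kilobase of exon, SKIL, ID3, ID1 and ID2 had the highest levels among the members in C4-2 R1881, at 7.57 ± 0.46, 7.42 ± 1.21, 7.33 ± 0.81 and 7.01 ± 0.75 CPM per kb (SD, n = 2), 4 levels whose ranges of 1 SD overlapped. BAMBI followed at 4.96 ± 0.17 CPM per kb, and SMAD6, ID4 and SMAD7 lay at 1.33, 0.87 and 0.74 CPM per kb. TGFB1 was last at 0.09 CPM per kb. In LNCaP R1881 the order was led by ID4 at 142 ± 3 CPM per kb, followed by ID2 at 32.7 ± 4.8 and ID3 at 24.5 ± 6.7. Both ID2 libraries lay above both ID3 libraries, though their ranges of 1 SD overlapped. ID1, BAMBI and SKIL came next at 8.55 ± 3.70, 7.79 ± 0.21 and 7.004 ± 0.31 CPM per kb. TGFB1 and SMAD7 were level at 3.75 and 3.73 CPM per kb, and SMAD6 was lowest at 1.18 CPM per kb.

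**Figure D1:**
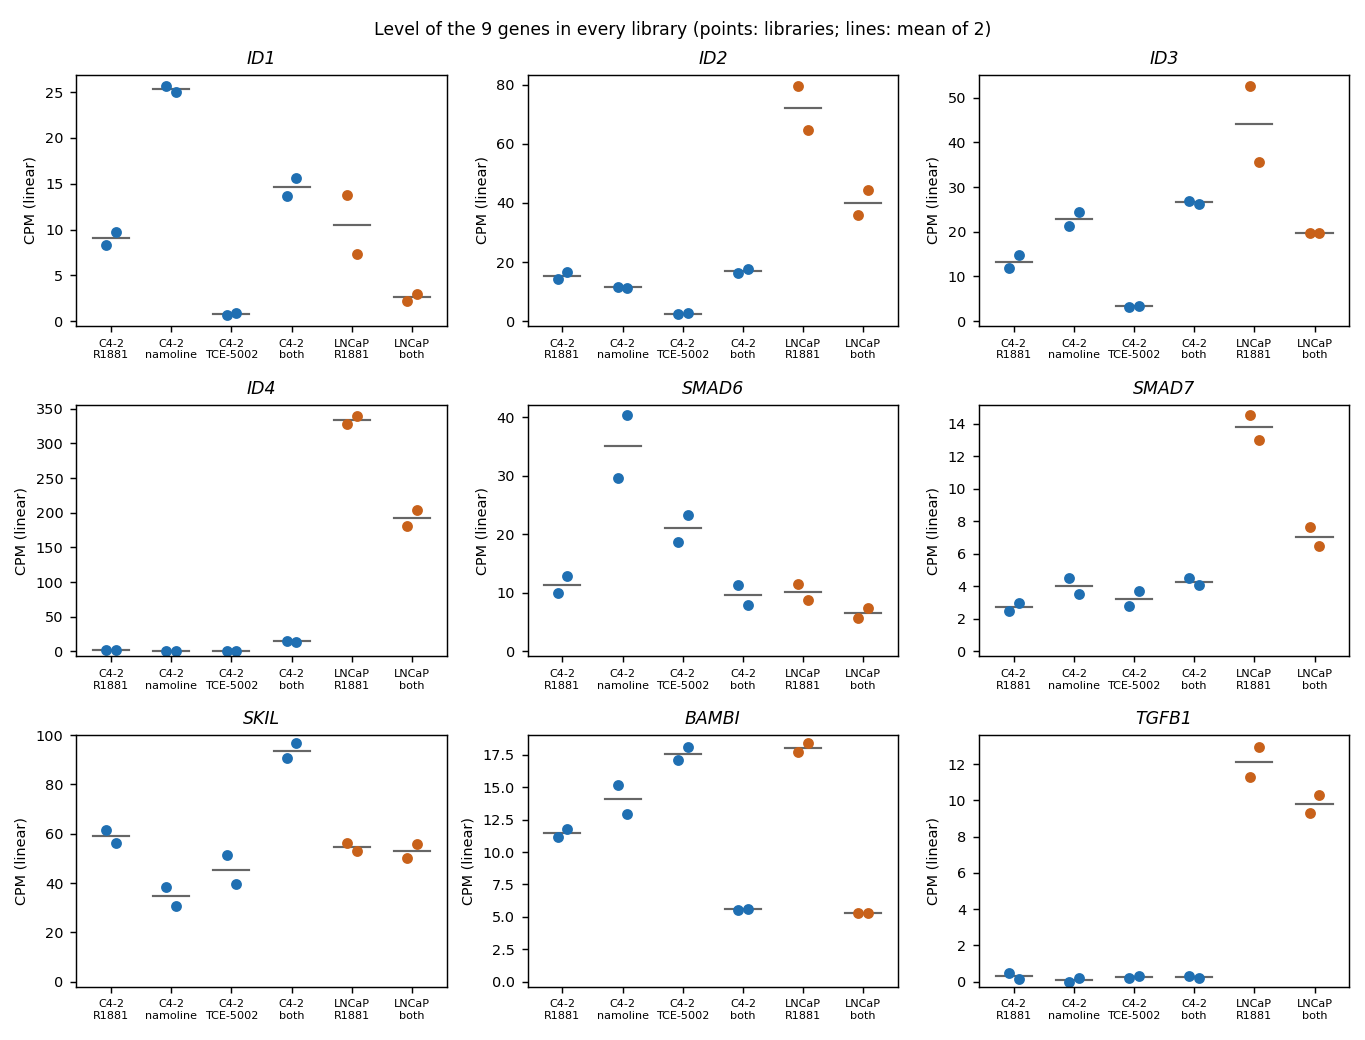
Level of each gene in every library on a linear CPM axis, with a point per library and a line at the mean of 2, blue for C4-2 and orange for the libraries labelled LNCaP. ID1 to ID4 were lowest in the C4-2 TCE-5002 group, while ID4 and TGFB1 were far higher in the LNCaP-labelled libraries than in any C4-2 library.

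With TCE-5002 the 4 ID genes of C4-2 fell 3.99-fold to 11.7-fold. SMAD6 and BAMBI rose, and SMAD7 and SKIL did not pass the test. Of the 8 members tested, 2 rose and 4 fell at an edgeR adjusted p-value under 0.05, beside 36.5% of all 17702 genes called (19.9% higher and 16.7% lower). The 4 ID genes were also the members lower by at least 2-fold, where 6.80% of all genes were called. The median log2 fold change was -1.19 over the 8 members and -0.0001 over all genes tested. TGFB1 was counted too rarely in C4-2 to enter these fits.

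ID1, the classical early BMP target, had 8.33 and 9.74 CPM in the C4-2 R1881 libraries and 0.67 and 0.86 CPM (13 and 16 counts) with TCE-5002. The groups did not overlap, and the log2 fold change was -3.55 ± 0.23 (standard error, edgeR adjusted p = 2.42e-07). ID2 fell from 14.3 and 16.6 CPM to 2.43 and 2.68 CPM, a log2 fold change of -2.59 ± 0.18 (edgeR adjusted p = 4.06e-07). ID3, which often accompanies ID1, went from 11.8 and 14.9 CPM to 3.26 and 3.37 CPM, with a log2 fold change of -2.00 ± 0.18 (edgeR adjusted p = 2.41e-06). ID4 was low before treatment, at 2.11 and 1.95 CPM, and had 0.47 and 0.37 CPM (9 and 7 counts) with TCE-5002, for a log2 fold change of -2.25 ± 0.34 (edgeR adjusted p = 0.000162). In each ID gene both TCE-5002 libraries lay below both R1881 libraries. The share of all genes separated in this way was not counted, and 36.5% of all genes were called. Differences between the TCE-5002 replicates followed transcript GC content (Spearman's rho -0.79 across genes, which are not independent replicates), and after a GC correction the 4 log2 fold changes were -3.71, -2.63, -2.12 and -2.19, each past the threshold.

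Among the feedback genes, SMAD6, which mainly restrains BMP receptors, rose from 9.93 and 12.9 CPM to 18.6 and 23.4 CPM with TCE-5002 (log2 fold change 0.89 ± 0.21, edgeR adjusted p = 0.00377). BAMBI rose from 11.2 and 11.8 CPM to 17.1 and 18.1 CPM (0.62 ± 0.16, edgeR adjusted p = 0.00633). The calls for SMAD6 and BAMBI were lost without C4-2 R1881 replicate 1, at 0.72 and 0.59 with edgeR adjusted p of 0.0629 and 0.0708, so that 4 members then passed. SMAD7, which restrains both branches, had 2.48 and 2.99 CPM in R1881 and 2.80 and 3.70 CPM with TCE-5002. These groups overlapped, and its difference did not pass the test (0.26 ± 0.26, edgeR adjusted p = 0.464). SKIL had 61.5 and 56.4 CPM against 51.5 and 39.4 CPM. Its groups did not overlap, its log2 fold change of -0.38 ± 0.15 narrowly missed the threshold (edgeR adjusted p = 0.0559), and it passed without TCE-5002 replicate 1 (-0.59, edgeR adjusted p = 0.000782) and after the GC correction (-0.21, edgeR adjusted p = 0.0480). Luminal markers moved in the same libraries, with 5 of 9 higher, 1 (CDH1) lower and a summed level of 5130.3 to 5145 CPM, and the part of this in the members' values was not tested.

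Namoline gave a different pattern in C4-2, in which the ID genes split. ID1, ID3 and SMAD6 rose, SKIL fell, and ID2 and ID4 were lower by amounts that depended on the fit. Of the 8 members tested, 3 rose and 3 fell, beside 35.0% of all genes called (18.7% higher and 16.3% lower), and ID1 and SMAD6 rose by at least 2-fold, where 5.17% of all genes were called. The member median was a log2 fold change of 0.42 against -0.0043 over all genes tested.

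ID1 reached 25.7 and 25.0 CPM with namoline, from 8.33 and 9.74 CPM (log2 fold change 1.48 ± 0.16, edgeR adjusted p = 9.06e-06). ID3 reached 21.2 and 24.5 CPM, from 11.8 and 14.9 CPM (0.77 ± 0.16, edgeR adjusted p = 0.00152). Neither pair of groups overlapped, which was not counted over all genes. Both genes moved in the direction opposite to that with TCE-5002. SMAD6 reached 29.6 and 40.4 CPM, its highest level in any group (1.61 ± 0.20, edgeR adjusted p = 3.48e-05). SKIL went to 38.6 and 30.9 CPM, below both R1881 libraries (-0.78 ± 0.15, edgeR adjusted p = 0.000969). ID2 had 11.6 and 11.3 CPM (-0.44 ± 0.16, edgeR adjusted p = 0.0416) and ID4 had 1.24 and 1.02 CPM, or 21 and 17 counts (-0.86 ± 0.29, edgeR adjusted p = 0.0307). The last 2 calls were lost with no filter on low counts, with DESeq2 and without any 1 of the 4 libraries compared, and 4 members passed in each of those fits. SMAD7 (4.49 and 3.54 CPM, 0.55 ± 0.25, edgeR adjusted p = 0.108) and BAMBI (15.2 and 12.95 CPM, 0.28 ± 0.16, edgeR adjusted p = 0.183) did not pass, although neither gene's namoline libraries overlapped those of R1881. Luminal markers had 3 of 9 higher and 1 lower in the same libraries, at a summed level of 3669.8 to 3909 CPM, and their part in the members' values was not tested.

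**Figure D2:**
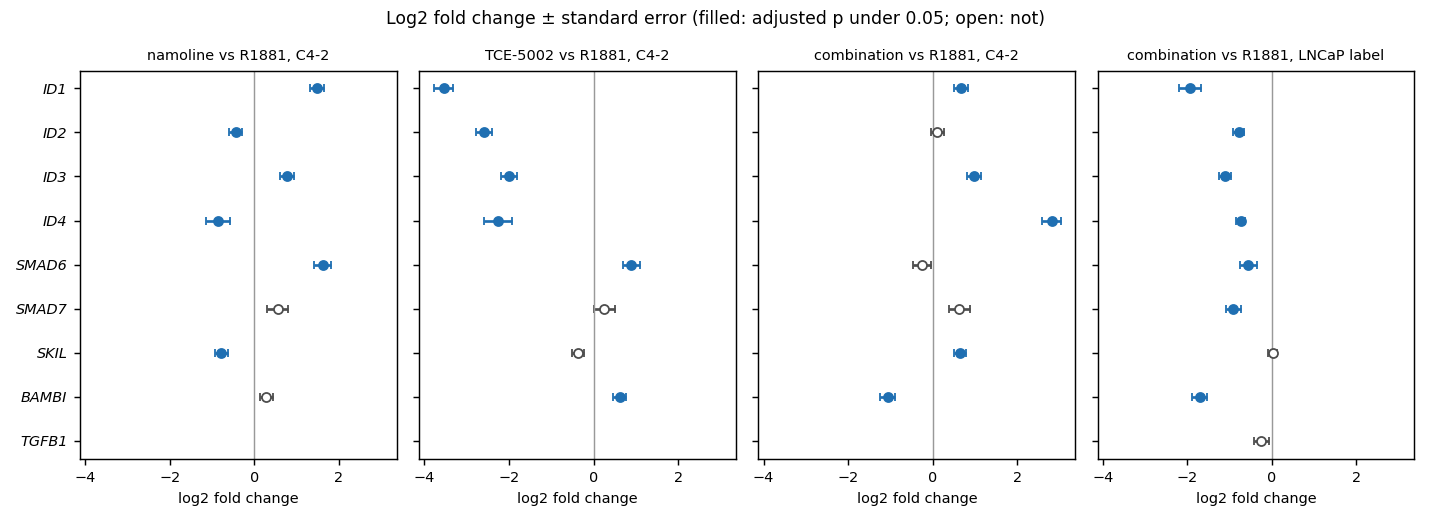
Log2 fold change of each gene against R1881 of the same line (x axis) in 4 comparisons, with the standard error as bars, filled points past an adjusted p-value of 0.05 and open points not. The ID genes lay left of 0 with TCE-5002 and in the LNCaP-labelled combination, from -0.74 to -3.55, and ID1, ID3 and ID4 lay right of 0 in the C4-2 combination.

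With both inhibitors the C4-2 cells did not show the low ID levels seen with TCE-5002. ID1, ID3 and ID4 rose above the R1881 level, with ID4 up 7.02-fold, SKIL also rose and BAMBI fell 2.09-fold. Of the 8 members tested, 4 rose and 1 fell, beside 50.3% of all genes called (24.8% higher and 25.6% lower). ID4 was higher and BAMBI lower by at least 2-fold, beside 21.7% of all genes. The median log2 fold change was 0.64 over the members and -0.03 over all genes tested.

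ID4 rose to 15.4 and 13.8 CPM (271 and 220 counts) from 2.11 and 1.95 CPM (45 and 30 counts), a log2 fold change of 2.81 ± 0.22 (edgeR adjusted p = 2.38e-07). ID3 reached 26.9 and 26.2 CPM (0.98 ± 0.15, edgeR adjusted p = 0.000131). ID1 reached 13.7 and 15.6 CPM (0.68 ± 0.16, edgeR adjusted p = 0.0033), a call that was lost without C4-2 R1881 replicate 1 (0.57, edgeR adjusted p = 0.0598). ID2, with 16.3 and 17.6 CPM, overlapped R1881 (0.11 ± 0.15, edgeR adjusted p = 0.567). SKIL had its highest levels here, 90.6 and 96.8 CPM (0.64 ± 0.14, edgeR adjusted p = 0.00193). BAMBI had 5.56 and 5.57 CPM, its lowest in C4-2 (-1.07 ± 0.17, edgeR adjusted p = 0.00014). SMAD6, with 11.3 and 7.94 CPM, overlapped R1881 (-0.25 ± 0.22, edgeR adjusted p = 0.344). SMAD7 had 4.48 and 4.07 CPM, above both R1881 libraries. Its adjusted p of 0.0501 by edgeR lay at the threshold (0.63 ± 0.25) and passed under 6 of the alternatives, RLE scaling among them (edgeR adjusted p = 0.0376). Luminal markers had 6 of 9 lower, CDH1 among them, and 1 (KRT8) higher, at a summed level of 2306 to 2333 CPM. Of the mesenchymal and fibroblast markers, 3 of 9 were tested. ZEB1 was higher (a mean of 5.65 against 0.43 CPM) and VIM (1.25 against 2.45 CPM) and PDGFRB (0.49 against 1.23 CPM) were lower, while the list summed to 7.49 to 8.07 CPM. The part of these markers in the members' values was not tested.

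Against TCE-5002 alone, the combination had the 4 ID genes higher by log2 4.22 ± 0.23 for ID1, 2.70 ± 0.18 for ID2, 2.97 ± 0.18 for ID3 and 5.06 ± 0.28 for ID4, the last a 33.5-fold difference. SKIL was higher (1.02 ± 0.15), SMAD6 and BAMBI were lower (-1.15 ± 0.21 and -1.69 ± 0.17), and SMAD7 did not pass (0.37 ± 0.25, edgeR adjusted p = 0.212). The count of 7 of 8 members stood beside 55.1% of all genes called (26.4% higher and 28.7% lower). Against namoline alone, 6 of 8 members passed, beside 55.9% of all genes (26.9% higher and 29.0% lower). ID4 (3.67 ± 0.24), SKIL (1.42 ± 0.15) and ID2 (0.55 ± 0.16) were higher, and SMAD6 (-1.87 ± 0.21), BAMBI (-1.35 ± 0.17) and ID1 (-0.80 ± 0.16) were lower. ID1 was therefore highest with namoline, intermediate with the combination and lowest with TCE-5002, whereas ID3 with the combination and with namoline differed by less than the test could call (0.21 ± 0.15, edgeR adjusted p = 0.259; 0.28, edgeR adjusted p = 0.0432 after the GC correction). The ID2 call was lost without C4-2 combination replicate 2 (0.54, edgeR adjusted p = 0.051).

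The interaction, the combination minus both single treatments plus R1881 on the log2 scale, asks whether the combined change equals the sum of the single changes. For the ID genes it did not. The single changes of ID4 summed to -3.11 while the combination gave 2.81, an interaction of 5.92 ± 0.41 (edgeR adjusted p = 3.76e-08). For ID2 the sum was -3.03 and the combination 0.11, an interaction of 3.14 ± 0.24 (edgeR adjusted p = 1.08e-07). ID1 had a sum of -2.07 and an interaction of 2.75 ± 0.29 (edgeR adjusted p = 2.21e-06), and ID3 a sum of -1.23 and an interaction of 2.20 ± 0.24 (edgeR adjusted p = 2.48e-06). SKIL joined them with 1.80 ± 0.21 (edgeR adjusted p = 4.86e-06). SMAD6 and BAMBI went the other way: the single changes were positive, with sums of 2.50 and 0.90, and their interactions were -2.76 ± 0.29 (edgeR adjusted p = 2.22e-06) and -1.97 ± 0.23 (edgeR adjusted p = 5.54e-06). SMAD7 was near its sum of 0.81 (interaction -0.18 ± 0.35, edgeR adjusted p = 0.697). These 7 of 8 calls stood beside 53.5% of all genes called, 25.6% higher and 27.9% lower, and each of the 7 was at least 2-fold, beside 35.3% of all genes.

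**Figure D3:**
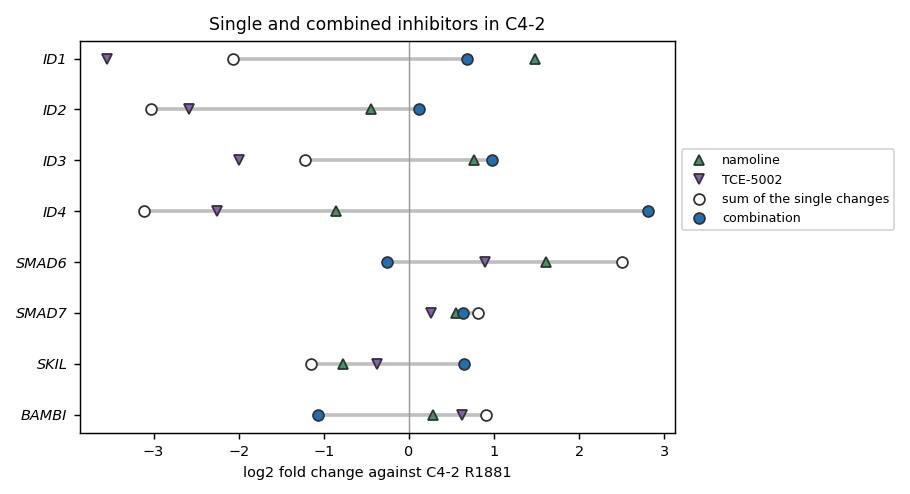
Log2 fold change against C4-2 R1881 (x axis) with namoline (upward triangles), TCE-5002 (downward triangles) and the combination (blue circles) for the 8 members tested, with open circles at the sum of the single changes. Grey bars join the sum to the combination, the longest being ID4 (from -3.11 to 2.81) and the shortest SMAD7 (from 0.81 to 0.63).

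In the libraries labelled LNCaP most members were lower with the combination. The 4 ID genes, SMAD7 and BAMBI fell, SMAD6 fell by an amount that depended on the fit, and SKIL and TGFB1 did not pass the test. Of the 9 members, 7 passed and were lower and 0 were higher, beside 56.2% of all 17565 genes called (28.0% higher and 28.2% lower). ID1, ID3 and BAMBI fell by at least 2-fold, where 11.3% of all genes were called. The median log2 fold change was -0.79 over the 9 members and -0.0049 over all genes tested.

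ID1 fell from 13.8 and 7.32 CPM to 2.24 and 2.99 CPM (log2 fold change -1.94 ± 0.26, edgeR adjusted p = 1.25e-07). ID3 fell from 52.7 and 35.5 CPM to 19.8 and 19.7 CPM (-1.10 ± 0.15, edgeR adjusted p = 9.75e-08), and ID2 from 79.6 and 64.7 CPM to 35.8 and 44.3 CPM (-0.79 ± 0.12, edgeR adjusted p = 1.77e-06). ID4 fell from 329 and 339 CPM to 181 and 204 CPM (-0.74 ± 0.11, edgeR adjusted p = 4.57e-07). None of these 4 pairs of groups overlapped. How many of all genes were separated in this way was not counted, and 56.2% of all genes were called in this comparison. BAMBI fell from 17.7 and 18.4 CPM to 5.33 and 5.28 CPM (-1.71 ± 0.17, edgeR adjusted p = 5.5e-10), and SMAD7 from 14.6 and 13.0 CPM to 7.63 and 6.49 CPM (-0.91 ± 0.18, edgeR adjusted p = 4.91e-05). SMAD6 had 11.4 and 8.73 CPM against 5.69 and 7.41 CPM (-0.56 ± 0.20, edgeR adjusted p = 0.0171). SKIL, with 56.2 and 52.8 CPM against 50.3 and 55.8 CPM, overlapped (0.02 ± 0.11, edgeR adjusted p = 0.894). TGFB1, the ligand itself, had 11.3 and 13.0 CPM against 9.33 and 10.3 CPM (-0.25 ± 0.17, edgeR adjusted p = 0.22).

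Without combination replicate 1, whose internal name lacks TCE-5002, the log2 fold changes were -1.76 for ID1, -0.65 for ID2, -1.11 for ID3, -0.66 for ID4, -1.03 for SMAD7 and -1.72 for BAMBI, each still past the threshold with edgeR, and SMAD6 lost its call (-0.39, edgeR adjusted p = 0.106). The SMAD6 call was also lost without R1881 replicate 1 (-0.36, edgeR adjusted p = 0.255). Replicate differences in the LNCaP combination group followed GC content (Spearman's rho 0.63 across genes). After the GC correction SMAD6 was at -0.29 (edgeR adjusted p = 0.198), SKIL was lower and past the threshold at -0.31 (edgeR adjusted p = 0.0051), and TGFB1 was at 0.23 (edgeR adjusted p = 0.24). Luminal markers had 7 of 9 lower and 1 higher, at a summed level of 342 to 446 CPM, and mesenchymal and fibroblast markers had 3 of 6 tested lower and 1 higher, at 718 to 756 CPM, in the same libraries. The part of either in the members' values was not tested.

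The lines differed in most of these genes before inhibition, as they did in most genes tested. At R1881 alone, 6 of the 9 members were lower in C4-2 than in the libraries labelled LNCaP and 0 were higher, beside 76.8% of all 19763 genes called (37.8% higher and 39.0% lower). ID4 was at 2.11 and 1.95 CPM in C4-2 and at 329 and 339 CPM in LNCaP R1881, a log2 difference of -7.32 ± 0.14 (edgeR adjusted p = 3.3e-22), or 159.9-fold. TGFB1 had 10 and 2 counts in the C4-2 R1881 libraries, 0 and 3 with namoline, 4 and 6 with TCE-5002 and 5 and 3 with the combination, against 243 and 285 counts in LNCaP R1881. The 0 in namoline replicate 1 allows up to 0.177 CPM, the level of 3 counts there. The TGFB1 difference was -5.16 ± 0.31 (edgeR adjusted p = 2.66e-13), and -6.46 without C4-2 R1881 replicate 1. SMAD7 (-2.32 ± 0.19), ID2 (-2.20 ± 0.13), ID3 (-1.71 ± 0.15) and BAMBI (-0.63 ± 0.14) were also lower in C4-2. SMAD6 (0.19 ± 0.19, edgeR adjusted p = 0.358) and SKIL (0.14 ± 0.09, edgeR adjusted p = 0.167) did not pass. ID1 did not pass either (-0.20 ± 0.21, edgeR adjusted p = 0.394), and its sign depended on the LNCaP libraries, with 0.29 without R1881 replicate 1 and -0.62 without R1881 replicate 2 (edgeR adjusted p = 0.00566). The mesenchymal and luminal marker sums given above differed between the lines in the same libraries, and their part in these differences was not tested.

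The combination acted differently on 7 of the 9 members in the 2 lines by a test of the difference itself, beside 47.6% of all genes called, and in each of the 7 the C4-2 change was the more positive, beside 21.7% of all genes called in that direction and 25.9% in the other. The difference of log2 fold changes, C4-2 minus LNCaP label, was 3.49 ± 0.18 for ID4 (edgeR adjusted p = 7.36e-13), 2.56 ± 0.33 for ID1 (edgeR adjusted p = 8.05e-07) and 2.03 ± 0.21 for ID3 (edgeR adjusted p = 4.31e-08), 3 genes that rose in C4-2 and fell in the libraries labelled LNCaP. SMAD7 differed by 1.49 ± 0.28 (edgeR adjusted p = 0.000105), ID2 by 0.85 ± 0.18 (edgeR adjusted p = 0.000458) and SKIL by 0.57 ± 0.13 (edgeR adjusted p = 0.000985). BAMBI fell in both lines, and its difference of 0.59 ± 0.22 (edgeR adjusted p = 0.0335) lost its call in 8 of the alternatives, the fit without LNCaP combination replicate 1 among them (0.58, edgeR adjusted p = 0.0558). SMAD6 (0.25 ± 0.28, edgeR adjusted p = 0.483) and TGFB1 (-0.27 ± 0.69, edgeR adjusted p = 0.787) did not pass. ID4 also ended at different levels, at 15.4 and 13.8 CPM in the C4-2 combination against 181 and 204 CPM in the LNCaP-labelled combination, while BAMBI ended at 5.56 and 5.57 CPM against 5.33 and 5.28 CPM.

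Genes around the members in the same pathways were followed as lists, and their counts stand beside the shares over all genes, which were 18.7% higher and 16.3% lower with namoline, 19.9% and 16.7% with TCE-5002, 24.8% and 25.6% in the combination of C4-2, and 28.0% and 28.2% in the LNCaP combination. Among receptor-regulated and common SMADs (6 genes), 5 rose and 0 fell in the C4-2 combination, beside 24.8% of all genes higher, with SMAD9 at 102.5 ± 6.6 CPM against 45.6 ± 1.5 (log2 fold change 1.14 ± 0.12), SMAD4 at 0.82 ± 0.11 and SMAD2 at 0.71 ± 0.12. With namoline and with TCE-5002, 2 of the 6 fell each, SMAD9 among them (-0.51 ± 0.13 and -0.72 ± 0.13), and in the LNCaP combination 2 rose and 3 fell. SMAD9 transmits BMP signals. Among receptors (12 genes, 11 tested in C4-2), TGFBR3 rose under either single inhibitor (1.08 ± 0.18 for namoline, 0.97 ± 0.18 for TCE-5002). TGFBR1, the TGF-beta type I receptor, fell with namoline (-0.55 ± 0.11) and with TCE-5002 (-0.69 ± 0.11). The LNCaP combination lowered TGFBR1 too (-0.53 ± 0.10). ACVR2A, an activin and BMP type II receptor, fell in all 4 comparisons against R1881 (from -0.61 with TCE-5002 to -1.14 with the C4-2 combination). ACVR1B (0.58 ± 0.11) and ACVR2B (0.575 ± 0.16) rose with the C4-2 combination, and ACVR1 (0.68 ± 0.15) rose with that of LNCaP. The list's counts of higher and lower genes were 2 and 3 with namoline, 2 and 2 with TCE-5002, 2 and 4 with the combination, and 2 and 4 in the LNCaP combination.

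Of the other ligands (10 genes, 6 tested in C4-2), 3 rose and 2 fell with namoline, 4 rose and 1 fell with TCE-5002, and 2 rose and 3 fell with the combination, while 0 rose and 6 of 10 fell in the LNCaP combination. GDF15, a stress-induced divergent member of the family, was at 305 ± 55 CPM in C4-2 R1881 and rose with TCE-5002 (1.70 ± 0.20) and with the combination (1.81 ± 0.20) but fell with namoline (-0.62 ± 0.20) and in the LNCaP combination (-1.59 ± 0.11). GDF11 rose with namoline (1.04 ± 0.16) and with TCE-5002 (0.83 ± 0.16) and fell with the C4-2 combination (-0.58 ± 0.17). INHBB had the largest change of the named ligands in the LNCaP combination, from 13.3 ± 0.5 to 1.37 ± 0.21 CPM (-3.23 ± 0.24). BMP4, a ligand that induces ID genes, fell there from 10.3 ± 0.2 to 3.74 ± 1.05 CPM (-1.42 ± 0.22). Ligand antagonists and latency proteins (8 genes, 6 tested in C4-2) had 5 higher and 0 lower with TCE-5002, LTBP4 and FSTL3 among them (0.87 ± 0.21 and 0.93 ± 0.22), beside 19.9% of all genes higher, and 0 higher and 4 of 7 lower in the LNCaP combination. The TCE-5002 replicates were far apart here, with the list summing to 217 CPM in one and 380.2 CPM in the other, and LTBP4 at 88.9 ± 37.7 CPM. The list had 0 higher and 1 lower with namoline and 2 higher and 1 lower with the C4-2 combination.

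The other pathway inhibitors (8 genes, 7 tested in C4-2) included PMEPA1, an androgen-responsive gene whose protein sequesters SMADs. It rose with namoline (0.64 ± 0.11) and with TCE-5002 (0.78 ± 0.11) and fell with the combination (-1.33 ± 0.12) and in the LNCaP combination (-1.07 ± 0.12). SKI, the paralogue of SKIL, was at 0.42 ± 0.13 with namoline and at -1.43 ± 0.11 in the LNCaP combination. The list had 2 higher and 1 lower with either single inhibitor, 4 higher and 2 lower with the C4-2 combination, and 0 higher and 5 lower in the LNCaP combination.

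The other BMP-induced genes (6 genes) fell together in the LNCaP combination, where 5 of 5 tested were lower, beside 28.2% of all genes lower and 56.2% called in either direction, at a median log2 fold change of -1.39 against -0.0049 over all genes tested. DLX2 fell from 86.2 ± 2.0 to 24.7 ± 2.0 CPM (-1.75 ± 0.12), MSX2 from 32.5 ± 3.4 to 8.71 ± 1.53 CPM (-1.83 ± 0.15) and HEY1 from 578 ± 70 to 269.7 ± 12.6 CPM (-1.04 ± 0.11). In C4-2 these genes summed to 16.5 to 22.2 CPM in any library, and 2 rose with namoline, 1 fell with TCE-5002, and 1 rose and 3 fell with the combination. The other TGF-beta-induced genes (15 genes, 12 tested in each line) had 4 higher and 3 lower with namoline, 1 higher and 3 lower with TCE-5002, 5 higher and 3 lower with the C4-2 combination (50.3% of all genes called), and 2 higher and 8 lower in the LNCaP combination (56.2% called). CCN1, a matricellular protein gene, rose from 2.81 ± 0.20 to 38.8 ± 4.8 CPM with the C4-2 combination (3.75 ± 0.19), and JUNB, an AP-1 subunit, rose there (1.89 ± 0.23) and fell in the LNCaP combination (-1.62 ± 0.18). SPHK1 rose with namoline (1.40 ± 0.17) and with TCE-5002 (1.28 ± 0.17), and FN1 rose with namoline (0.49 ± 0.13). KLF10, an early TGF-beta target, fell with TCE-5002 (-1.36 ± 0.13) and in the LNCaP combination (-1.08 ± 0.11), where SNAI2 also fell (-0.66 ± 0.11). THBS1, which activates latent TGF-beta, fell in each of the 3 C4-2 comparisons against R1881 (-1.77 ± 0.20, -2.12 ± 0.21 and -1.98 ± 0.21).

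**Figure D4:**
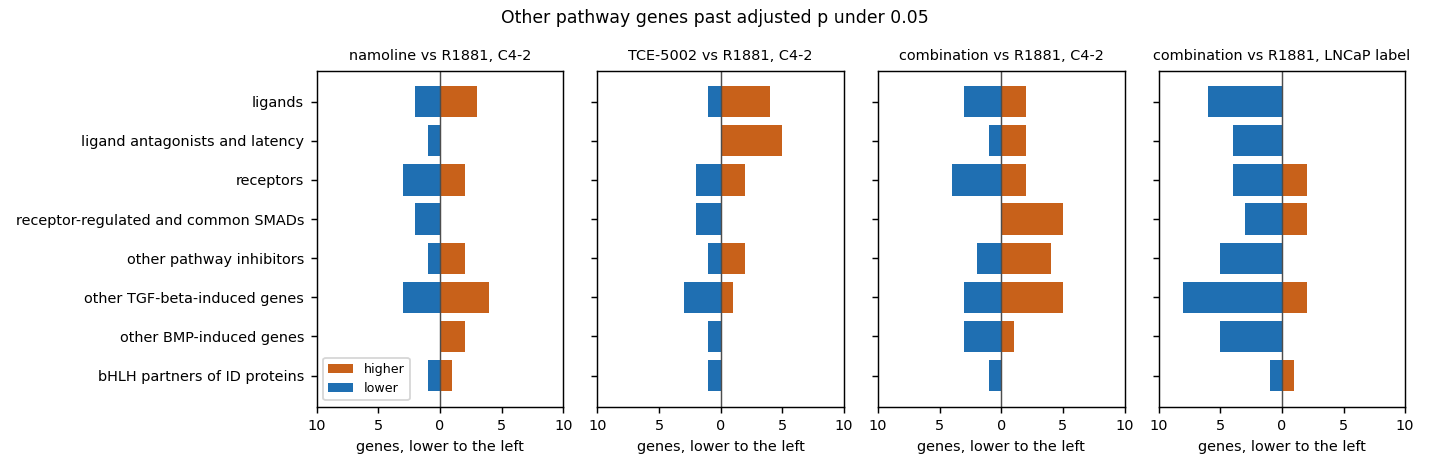
Number of genes of each pathway list past an adjusted p-value of 0.05, higher to the right and lower to the left, in 4 comparisons against R1881, the members left out. The SMAD list had 5 higher genes in the C4-2 combination, and the TGF-beta-induced and BMP-induced lists had 8 and 5 lower genes in the LNCaP-labelled combination.

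Of the bHLH partners that ID proteins bind (3 genes), TCF12 fell with namoline (-0.73 ± 0.12) and with TCE-5002 (-0.58 ± 0.12) and rose in the LNCaP combination (0.42 ± 0.11). TCF3 was at 0.55 ± 0.17 with namoline and at -0.36 ± 0.11 in the LNCaP combination. In C4-2 R1881, TCF12 lay at 141 CPM, TCF3 at 34.8 CPM and TCF4 at 1.33 CPM, and in LNCaP R1881 at 77.7, 163 and 29.7 CPM. Of the 3, 1 fell and 0 rose in the C4-2 combination.

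Over the 8 C4-2 libraries and 10372 genes with a symbol and a mean of at least 10 CPM, the genes whose log2(CPM + 1) followed ID1 most closely were PRR14L (Pearson's r 0.989), MAGEF1 (0.982) and ARRDC3 (0.979). ARRDC3, an arrestin-domain gene, had group means of 45.0 CPM with R1881, 89.3 with namoline, 17.6 with TCE-5002 and 75.5 with the combination, the same order as ID1. Those nearest to SMAD7 were NDUFAF8 (0.922), RNF213 (0.916) and ITPA (0.912), at a gene that varied between 2.48 and 4.49 CPM. The 8 libraries share 4 treatments and their depth, so these coefficients describe likeness of pattern and carry no test.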

How the data were processed

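Polyadenylated RNA of 12 libraries had been sequenced in paired ends. The authors deposited raw fragment counts per gene, made, per the file headers, with featureCounts 1.5.0-p1 against Ensembl release 83 (GRCh38), with no strand option, 1 library per file and not normalised. Groups came from the library titles. Replicates of a group differed by more than counting noise (chi-square per gene from 3.61 to 27.9). Genes were kept with filterByExpr (minimum count 10), libraries scaled by TMM, and contrasts tested with edgeR 4.0.16 (R 4.3.3, limma 3.58.1), quasi-likelihood F test, Benjamini-Hochberg adjusted over all genes tested. Members passed at an adjusted p under 0.05. C4-2 comparisons used the 8 C4-2 libraries, the LNCaP comparison its 4, and comparisons between lines the 8 with R1881 or the combination. Standard errors are the size of a log2 fold change divided by √F. Levels are CPM with TMM factors over 12 libraries. Floors (3 counts) cover counting error only. The steps were tested on simulated data. The alternatives included DESeq2 1.42.0, RLE scaling, no filter, a replicate block, a GC correction (loess span 0.3, 99.1% of tested genes with a GC value), other sets of libraries and each library left out.

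The members and lists were chosen with earlier results of these data known. Some marker genes of 1 list are not reported here. Named genes were the members and, for each list and comparison against R1881, up to 3 genes of largest change among those passing with at least 10 CPM in the higher group. Values of TCF4 and of the single markers were added outside this rule, after their values were seen.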

Additional observations from a re-analysis of the deposited data

Results flagged for a closer look

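Each group held 2 libraries, too few to test a library for standing apart from its group. On 7 members the combination effect differed between C4-2 and the LNCaP-labelled libraries by edgeR's test of the difference itself, beside 47.6% of all genes called. On the log2 scale, C4-2 minus LNCaP label, the values were 3.49 for ID4, 2.56 for ID1, 2.03 for ID3, 1.49 for SMAD7, 0.85 for ID2, 0.59 for BAMBI and 0.57 for SKIL. Without LNCaP combination replicate 1, whose internal name lacks TCE-5002, they were 3.39, 2.36, 2.02, 1.59, 0.69, 0.58 and 0.48, and the call for BAMBI was lost (edgeR adjusted p = 0.0558).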

How the results depend on the processing

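Of the 57 values past the threshold among 75 pairs of a member and a comparison, 49 kept their direction and their side of the threshold under every alternative run. Exceptions past the threshold are given in the report beside their values. No count of members past the threshold moved by over 1.5 times, the widest being from 6 to 4 with namoline and with TCE-5002. With the replicate number as a block, 7 members passed with TCE-5002, 6 with the C4-2 combination, 6 in the LNCaP combination, where SMAD6 was at -0.55 (edgeR adjusted p = 0.0574), and 7 for the interaction. No label ties the numbers to a shared culture, so libraries of the same number were not taken as pairs. Same-numbered C4-2 libraries deviated together at r 0.28 to 0.47 among R1881, namoline and TCE-5002. Between the combination and these groups r was -0.02 to 0.18, and it was 0.05 for LNCaP. Whether same-numbered libraries shared a batch was not tested.

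Values that changed sign were not past the threshold in the main analysis, and the cause was not tested. After the GC correction, alone and with the replicate block, SKIL in the LNCaP combination was at -0.31 and -0.31, TGFB1 there at 0.23 and 0.22, the SMAD7 interaction at 0.073 and 0.068, and the SMAD6 difference between the lines at -0.075 and -0.083. SKIL in the LNCaP combination was at -0.0038 with no filter and at -0.039 with all 12 libraries. With 1 library left out in turn, SKIL there ran from -0.060 to 0.089, SMAD7 between the combination and namoline from -0.072 to 0.28 and its interaction from -0.34 to 0.023, ID1 between the lines at R1881 from -0.62 to 0.29 and SMAD6 from -0.025 to 0.37, and in the difference of combination effects SMAD6 from -0.035 to 0.54 and TGFB1 from -0.80 to 1.02. Depth limited TGFB1, with 0 to 10 counts per C4-2 library, and ID1 and ID4 with TCE-5002, with 7 to 16 counts.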
